A study of Mus musculus with 22 samples.

Results

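The 10 genes described here encode parts of the circadian clock and its direct outputs: Arntl, Clock, Per1, Per2, Per3, Cry1, Nr1d1, Nr1d2, Dbp and Tef. They were chosen by name, with no cut on level or on a difference between groups, though earlier results of these data were known. They make up 10 of the 23361 genes in the expression matrix. The mice were wild-type females of a Swiss Webster x DBA/C57BL6 F1 cross that either ate a control diet ad libitum (AL) or received a calorie-restricted diet (CR), with the reduction made in carbohydrates and the daily portion given in the morning. The 4 groups were AL at 5 months (n = 5), CR at 5 months (n = 5), AL at 15 months (n = 6) and CR at 15 months (n = 6), with 1 mRNA sequencing library of the microdissected hippocampal CA1 region per mouse. Some of the mice also served as controls in a separate study. All mice received ketamine and xylazine before perfusion and were killed in mid-afternoon, so each mouse gives the clock genes at a single time of day. A shifted phase, a changed amplitude and a changed mean level therefore cannot be told apart in these samples. CR mice were fed in the morning, and an effect of the feeding hour cannot be told apart from the restriction itself. Mice were assigned to the diets at random at about the same age, before 5 months. The CR mice at 15 months had therefore been restricted for longer than those at 5 months. Age and length of restriction cannot be told apart in CR mice, nor where diet effects are compared or averaged over the ages.

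The mammalian clock is a transcriptional feedback loop. ARNTL (also called BMAL1) and CLOCK form a heterodimer that binds E-box sequences and activates the Per, Cry, Nr1d, Dbp and Tef genes; PER and CRY proteins then repress ARNTL-CLOCK. NR1D1 and NR1D2 (the REV-ERB receptors) repress Arntl and other genes through ROR response elements (ROREs), which closes an additional loop. DBP and TEF, members of the PAR bZIP family with HLF, activate genes through D-boxes. In tissues with a running clock, Arntl usually peaks nearly opposite to Per, Nr1d and Dbp transcripts. The pacemaker lies in the suprachiasmatic nucleus, while the hippocampus holds a peripheral clock whose timing can follow feeding.

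The promoter sequences of the genes that passed the test between diets, Nr1d1, Cry1 and Ciart (listed as Gm129 in the matrix), are shown because the loop acts through such elements. RefSeq promoter windows of GRCm38.p6, each 300 bases long, from 250 bases before to 50 after an annotated start, were on hand for 9 of the 10 members. The 250 upstream bases of each are given 5′ to 3′ on the gene's own strand, and capitals mark E-boxes (CACGTG) and the E-box variant CACGTT, which reads AACGTG on the other strand. The stretches lie at chr11:98775378-98775627 (Nr1d1, minus strand), chr10:85185055-85185304 (Cry1, minus strand) and chr3:95882229-95882478 (Ciart, minus strand).
Nr1d1: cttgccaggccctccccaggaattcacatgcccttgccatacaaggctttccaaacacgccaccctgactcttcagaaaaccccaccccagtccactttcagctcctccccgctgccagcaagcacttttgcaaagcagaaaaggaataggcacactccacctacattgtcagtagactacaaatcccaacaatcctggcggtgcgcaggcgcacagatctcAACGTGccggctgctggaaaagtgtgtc
Cry1: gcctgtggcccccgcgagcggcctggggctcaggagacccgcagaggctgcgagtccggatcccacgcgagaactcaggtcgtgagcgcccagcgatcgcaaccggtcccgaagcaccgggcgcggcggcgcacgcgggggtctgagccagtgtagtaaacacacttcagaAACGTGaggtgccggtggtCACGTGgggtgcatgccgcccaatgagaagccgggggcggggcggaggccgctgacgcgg
Ciart: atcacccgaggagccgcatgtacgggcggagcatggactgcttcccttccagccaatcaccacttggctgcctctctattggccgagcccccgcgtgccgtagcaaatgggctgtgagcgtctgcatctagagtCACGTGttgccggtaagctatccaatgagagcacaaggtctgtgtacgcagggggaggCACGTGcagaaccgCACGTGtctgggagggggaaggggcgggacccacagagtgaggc

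Shorter stretches show the elements of 4 other members, with the capitals marking an E-box in Per1 and in both start windows of Tef, D-boxes (TTATGTAA) in Per3, and the RORE of Arntl. They lie at chr11:69098759-69098808 (Per1, plus strand), chr15:81802523-81802572 and chr15:81811253-81811302 (Tef, plus strand), chr4:151044806-151044880 (Per3, minus strand) and chr7:113207527-113207556 (Arntl, plus strand, downstream of the start).
Per1: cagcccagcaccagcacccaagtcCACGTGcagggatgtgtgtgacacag
Tef: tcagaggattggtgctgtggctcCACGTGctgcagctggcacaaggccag
Tef, other start: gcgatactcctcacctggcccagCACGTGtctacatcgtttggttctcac
Per3: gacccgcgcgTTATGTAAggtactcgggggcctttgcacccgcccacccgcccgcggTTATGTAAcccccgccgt
Arntl: gggaaggcagAAAGTAGGTCAgggacggag

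Motifs were searched on both strands of the full 300-base windows. A gene counted as a match if any of its windows held the motif, so genes with more windows had more chances. Clock had 3 windows, Arntl, Per1 and Tef had 2 each, and the other members with a window had 1. The 27025 genes with a window had 32851 windows in all. The E-box CACGTG was found for 3 of the 9 members (Per1, Cry1 and Tef), against 8.09% of the 27025 genes with a window. The variant CACGTT was found for 2 of the 9 (Cry1 and Nr1d1), against 5.44% of genes. The D-box, searched as TTATGTAA or TTACGTAA, was found for Per3 alone of the 9, with 2 matches in its window, against 1.23% of genes. The RORE was found for Arntl alone of the 9, against 0.459% of genes. The cyclic AMP response element TGACGTCA was found in 0 of the 9, against 2.03% of genes. Ciart, which is no member, held 3 E-boxes in its window. These are matches of letters in a short window, and distal elements were not searched.

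The dissection was checked with marker lists. The summed level of 8 CA1 pyramidal neuron markers ran from 254 to 528 FPKM in AL mice at 5 months and from 211 to 329 FPKM in AL mice at 15 months. FPKM is the number of fragments scaled to transcript length and to the mapped fragments of the library, so levels can be compared between genes. With age in AL mice, 4 of the 8 CA1 markers fell, while of the 10 neocortex and subiculum markers 3 rose and 1 fell, in a comparison that called 20.6% of all genes. Choroid plexus markers fell with age in both diets, 4 of 10 in AL and 8 of 10 in CR mice, where 3.36% of all genes were called. In AL mice 2 of 7 dentate gyrus markers also fell, and of 12 glucocorticoid target genes 5 fell and 1 rose. In diet at 15 months 0 dentate gyrus markers and 0 glucocorticoid target genes were called. The summed dentate gyrus level still ran from 16.9 to 53.2 FPKM in AL and from 15.9 to 162 FPKM in CR mice of that age. The summed CA1 markers of CR mice ran from 340 to 497 FPKM at 5 months and from 132 to 462 FPKM at 15 months. At 5 months the summed choroid plexus level ran from 4.82 to 39.6 FPKM in AL and from 13.3 to 358 FPKM in CR mice. Of 8 suprachiasmatic nucleus and hypothalamus markers 5 passed the filter on low values, of which 3 fell with age in AL and 2 in CR mice. Vip averaged 26.4, Avp 1.82 and Oxt 1.57 FPKM, Hcrt and Pmch 0.569 and 0.786 FPKM, and Six6, Lhx1 and Nms 0.0051, 0.0454 and 0.0293 FPKM. At 5 months 7 oligodendrocyte markers summed to 1121 to 1746 FPKM in AL and 772 to 1687 FPKM in CR mice. At 15 months they summed to 552 to 1195 FPKM in AL and 407 to 1921 FPKM in CR mice. The summed level of 6 pituitary markers reached 101 FPKM in AL and 42.1 FPKM in CR mice at 5 months. At 15 months it reached 5.01 and 4.08 FPKM. The part of these cell types in the clock gene results was examined only by entering the region and choroid plexus scores as covariates. The CR library at 15 months numbered 4 had the lowest CA1 score of its group, and the CR library at 5 months numbered 4 had the highest choroid plexus score. Calls of clock genes that change without either library are given both ways. In bulk tissue, fewer cells of a type and less RNA per cell cannot be told apart.

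All 10 clock genes were detected in all 22 libraries. Averaged over the libraries, Tef stood highest at 112 FPKM, above 95.05% of the 16978 genes tested. It was followed by Nr1d1 at 49.7, Nr1d2 at 32.1, Dbp at 29.7 and Per1 at 23.1 FPKM. Clock (14.9), Arntl (13.1), Per3 (12.51) and Per2 (11.8 FPKM) lay close together, and their ranges over the libraries overlapped. Cry1 was the lowest at 6.98 FPKM. The ratio of the highest to the lowest library was smallest for Clock, at 1.58, and largest for Per2 and Cry1, both at 2.65.

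**Figure D1:**
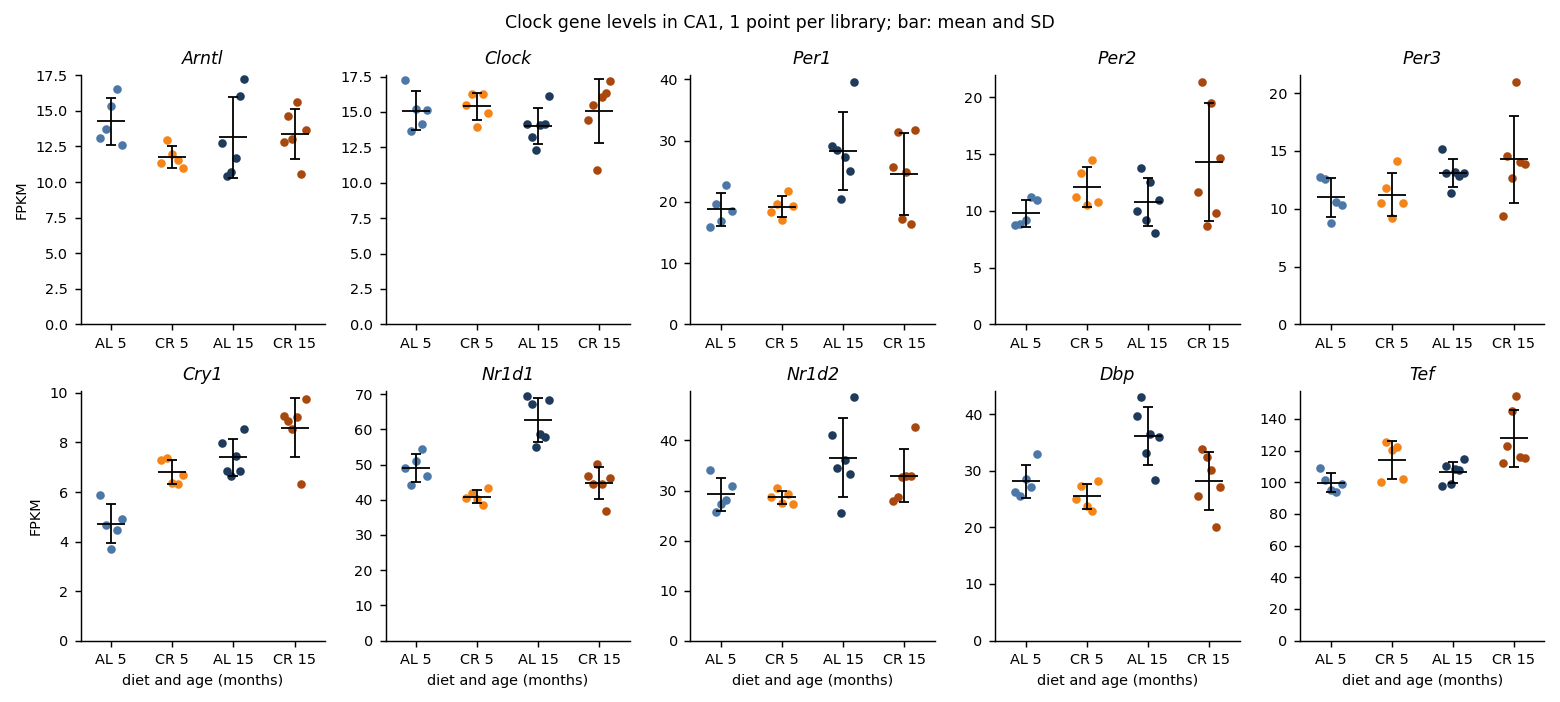
FPKM of the 10 clock genes (y axis, from 0) in each of the 22 libraries (points) by diet and age in months (x axis), with the group mean and SD as bars. The Nr1d1 points of CR mice lie below those of AL mice at both ages, and the Cry1 points of AL mice at 5 months lie below those of every other group.

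Differences were tested with limma on log2(FPKM + 0.1) across 16978 genes in a single fit of the 4 groups, and a gene was called at a Benjamini-Hochberg adjusted p under 0.05. In the comparison of AL mice at 15 against 5 months, 4 of the 10 clock genes were called, all higher at 15 months: Cry1, Nr1d1, Per1 and Dbp. Leaving out the AL library numbered 0 or 2 at 5 months or 5 at 15 months left 2 of them called. Over all genes tested, 20.6% were called in that comparison. In CR mice at 15 against 5 months, 0 of the 10 were called by limma, 2 had an unadjusted p under 0.05, and 3.36% of all genes were called. Between CR and AL mice at 5 months, 0 of the 10 were called, as were 0% of all genes; 4 clock genes, and 789 genes in all, had an unadjusted p under 0.05. At 15 months 1 of the 10, Nr1d1, was called lower in CR mice, against 0.742% of all genes. Averaged over both ages, Nr1d1 was called lower and Cry1 higher in CR mice, 2 of the 10, against 0.389% of all genes. The test of a different diet effect at the 2 ages called 0 of the 10 and 0% of all genes, with 0 clock genes and 1301 genes at an unadjusted p under 0.05. Each group enters more than 1 of these comparisons, so they are not independent of each other.

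The median log2 fold change of the 10 clock genes was 0.28 for age in AL mice and 0.17 for age in CR mice, where the median over all genes tested was -0.0018 and 0.0014. For diet the clock gene median was 0.029 at 5 months and 0.064 at 15 months, with 6 genes above 0 and 4 below at each age, while the median over all genes was -0.0012 at 15 months and closer to 0 at 5 months.

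**Figure D2:**
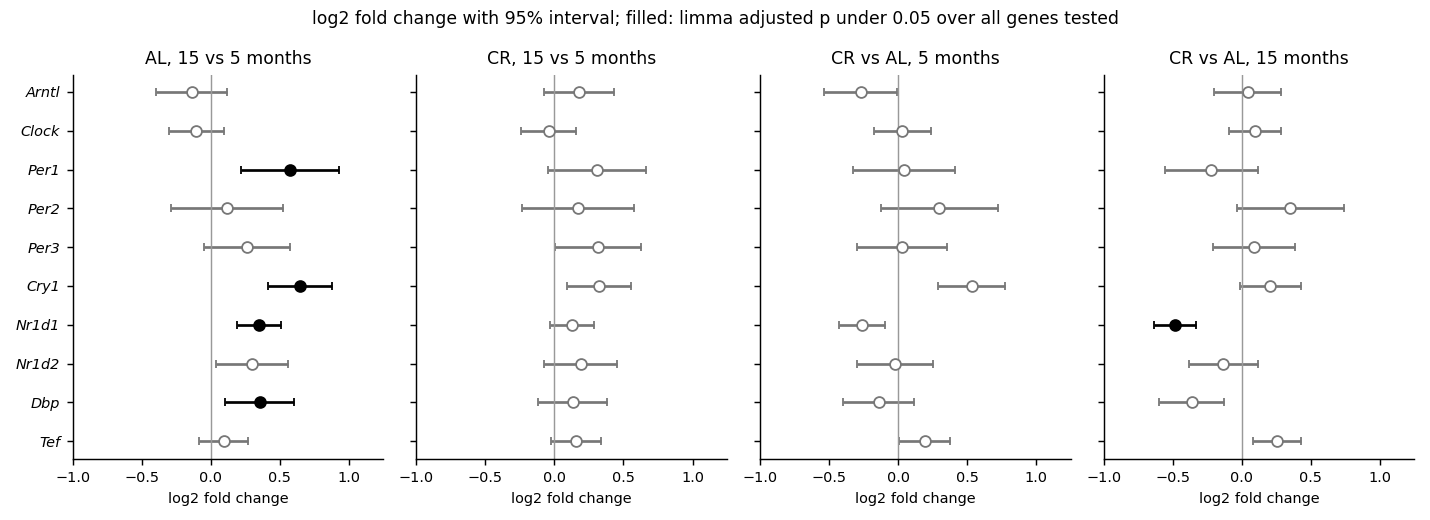
log2 fold change (x axis) of each clock gene (rows) with its 95% interval in the 4 comparisons of a pair of groups; filled points passed the limma test over all genes. Filled points are Per1, Cry1, Nr1d1 and Dbp for age in AL mice and Nr1d1 for diet at 15 months.

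Of the REV-ERB genes, Nr1d1 was called between the diets and Nr1d2 was not. Nr1d1 encodes the heme-binding repressor REV-ERB alpha. In AL mice at 5 months its levels were 48.9, 44.1, 50.9, 54.5 and 46.9 FPKM, and in CR mice of that age 40.4, 41.8, 40.2, 38.5 and 43.4 FPKM. At 15 months it stood at 69.3, 67.1, 54.8, 58.6, 57.9 and 68.2 FPKM in AL mice and at 46.8, 44.5, 50.03, 44.4, 36.7 and 46.2 FPKM in CR mice. The CR libraries lay below the AL libraries without overlap at each age, and AL mice at 15 months stood above all other groups.

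At 15 months the log2 fold change of Nr1d1, CR against AL, was -0.48 (SE 0.074, limma adjusted p = 0.00541), 0.715 times the AL level, and it ranked 6 among the 16978 genes by p. The exact permutation test of this difference gave p = 0.00216, two-sided, the smallest that 6 against 6 libraries allow. Exact permutation p-values, here and below, were not adjusted for the number of genes and comparisons, and not all of them are printed. Without the CR library numbered 4, which was the lowest, the log2 fold change was -0.43 (limma adjusted p = 0.00824). With a fit of the 2 groups alone it was again -0.48, and its limma adjusted p was 0.111; that fit called 0 genes in all at 15 months. With the region score (neocortex and subiculum minus CA1 markers) as a covariate it was -0.50 (limma adjusted p = 0.0203).

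At 5 months the Nr1d1 difference was -0.26 (SE 0.081), with an unadjusted p of 0.00406 and a limma adjusted p of 0.899; the exact permutation p was 0.00794, the smallest that 5 against 5 allow. Over both ages CR mice had lower Nr1d1 by -0.37 (SE 0.055, limma adjusted p = 0.00278). This call was kept in all 22 fits that left out 1 library, with log2 fold changes from -0.39 to -0.34. The diet effects at the 2 ages differed by -0.22, with a 95% interval from -0.45 to 0.0046 (limma adjusted p = 0.654), so a larger effect at 15 months was not shown. With age, Nr1d1 rose in AL mice by 0.35 (SE 0.077, limma adjusted p = 0.0038), while in CR mice its log2 fold change was 0.13 (95% interval -0.034 to 0.29, limma adjusted p = 0.404). The rise in AL mice did not pass with the region score as a covariate (log2 fold change 0.39, limma adjusted p = 0.0999), in a fit that called 32 genes in all.

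Nr1d2, which encodes REV-ERB beta, did not pass in any comparison. Its group means were 29.2 ± 3.31 FPKM (SD, n = 5) in the AL and 28.6 ± 1.30 (SD, n = 5) in the CR group at 5 months. At 15 months AL mice averaged 36.5 ± 7.87 (SD, n = 6) and CR mice 33.0 ± 5.27 FPKM (SD, n = 6). Between the diets at 15 months the log2 fold change was -0.13 with a 95% interval from -0.39 to 0.12. With age in AL mice it was 0.30 (95% interval 0.036 to 0.56, limma adjusted p = 0.0963), and without the AL library numbered 2 at 15 months it was 0.40 and passed (limma adjusted p = 0.0168). With the region score as a covariate it was 0.076 (limma adjusted p = 0.866). The difference between Nr1d1 and Nr1d2 in their diet effects was not tested.

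Cry1 rose with age in AL mice. It encodes a cryptochrome, a repressor of ARNTL-CLOCK. Its levels were 5.88, 4.66, 3.68, 4.47 and 4.90 FPKM in AL mice at 5 months and 7.27, 7.38, 6.36, 6.33 and 6.68 FPKM in CR mice at 5 months. At 15 months they were 7.96, 6.86, 6.66, 7.46, 6.86 and 8.56 FPKM in AL mice and 9.06, 8.86, 8.55, 9.02, 6.31 and 9.77 FPKM in CR mice. The AL group at 5 months lay below every library of the other groups, and the CR library numbered 4 at 15 months lay far below the other 5 of its group.

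The rise of Cry1 with age in AL mice was 0.65 on the log2 scale (SE 0.11, limma adjusted p = 0.000757; exact permutation p = 0.00433, the smallest that 6 against 5 allow). With the region score as a covariate it was 0.57 (limma adjusted p = 0.0971). In CR mice Cry1 differed with age by 0.32 (SE 0.11, limma adjusted p = 0.119), and without the low CR library numbered 4 it was 0.41 and passed (limma adjusted p = 0.0215). With the choroid plexus score as a covariate it was 0.15 (limma adjusted p = 0.913). At 5 months Cry1 stood higher in CR than in AL mice in 5 of 5 libraries, by 0.53 (SE 0.12); it ranked 5 among all genes by p, with a limma adjusted p of 0.52 and an exact permutation p of 0.00794. At 15 months the diet difference was 0.21 (95% interval -0.013 to 0.43, limma adjusted p = 0.321, exact permutation p = 0.0866). Averaged over both ages it was 0.37 (SE 0.078, limma adjusted p = 0.0431), a call that was lost in 19 of 22 fits without 1 library, over which the log2 fold change ran from 0.33 to 0.41. Without the CR library numbered 4 at 15 months, which was the lowest of its group, the averaged difference was 0.41 (limma adjusted p = 0.00651). Without the CR library numbered 4 at 5 months it was 0.37 and did not pass (limma adjusted p = 0.0529).

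Counted by overlap alone, 2 of the 10 members (Cry1 and Nr1d1, both higher at 15 months) had non-overlapping groups for age in AL mice, where 14% of all genes did. For age in CR mice it was 0 of the 10, against 3.26% of all genes. Between the diets it was 2 of the 10 at 5 months (Cry1 higher and Nr1d1 lower in CR), against 1.36% of all genes, and 1 of the 10 at 15 months (Nr1d1 lower), against 0.984%.

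The Period genes encode the partners of the cryptochromes, and Per1 and Per2 are also induced by neuronal activity and by glucocorticoids. Per1 rose with age in AL mice. Its levels were 15.96, 19.6, 16.9, 22.8 and 18.5 FPKM in AL mice at 5 months and 29.1, 28.4, 20.4, 27.3, 25.0 and 39.6 FPKM in AL mice at 15 months. The 2 groups overlapped in a single library of the older mice, and the highest library was far above the rest. Per1 differed by 0.57 on the log2 scale (SE 0.17, limma adjusted p = 0.0219; exact permutation p = 0.00866), and without the highest library, AL numbered 5, it was 0.47 (limma adjusted p = 0.0509). With the choroid plexus score as a covariate it was 0.57 (limma adjusted p = 0.0635), and with the region score 0.64 (limma adjusted p = 0.208). Leaving out the AL library numbered 0 (log2 fold change 0.52) or 2 (0.54) at 5 months also ended the call. With the immediate early gene score, described with the scores, as a covariate the difference was 0.43 (limma adjusted p = 0.0461). CR mice had 18.3, 19.6, 17.04, 21.8 and 19.4 FPKM at 5 months and 25.7, 31.4, 17.2, 25.0, 16.4 and 31.8 FPKM at 15 months. In CR mice the older libraries spread on both sides of the younger range. Their difference was 0.31 on the log2 scale (SE 0.17, limma adjusted p = 0.352, exact permutation p = 0.143).

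Per2 and Per3 did not pass in any comparison. Per2 averaged 9.78 ± 1.20 FPKM (SD, n = 5) in the AL and 12.1 ± 1.75 (SD, n = 5) in the CR group at 5 months. At 15 months it averaged 10.7 ± 2.11 (SD, n = 6) in AL and 14.3 ± 5.20 FPKM (SD, n = 6) in CR mice. Its diet difference averaged over both ages was 0.32 on the log2 scale (95% interval 0.037 to 0.61, limma adjusted p = 0.352), and 0.16 with the region score as a covariate. With age in AL mice it was 0.12, and with the region score 0.67 (limma adjusted p = 0.163). Its levels in CR mice at 15 months ran from 8.67 to 21.3 FPKM, with the largest coefficient of variation of any member and group, 36.4%. Per3 averaged 10.99 ± 1.68 (SD, n = 5) and 11.2 ± 1.86 FPKM (SD, n = 5) in AL and CR mice at 5 months, and 13.1 ± 1.23 (SD, n = 6) and 14.3 ± 3.80 FPKM (SD, n = 6) at 15 months. Its log2 fold change with age was 0.26 in AL mice (limma adjusted p = 0.22) and 0.32 in CR mice (limma adjusted p = 0.268).

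The activators did not pass in any comparison. Arntl stood at 13.1, 13.8, 15.4, 16.6 and 12.6 FPKM in AL mice at 5 months and at 11.3, 13.0, 11.96, 11.5 and 10.96 FPKM in CR mice at 5 months. In AL mice at 15 months it stood at 12.8, 10.4, 10.7, 11.7, 16.04 and 17.2 FPKM, and in CR mice at 12.8, 14.6, 13.0, 15.6, 10.6 and 13.6 FPKM. At 5 months all CR libraries lay below the AL median although the groups overlapped, and at 15 months 4 of the AL libraries lay at or below 12.8 FPKM and the other 2 at or above 16.04 FPKM. The diet difference at 5 months was -0.27 on the log2 scale (95% interval -0.54 to -0.0061, limma adjusted p = 1; exact permutation p = 0.0159), and at 15 months it was 0.042 (95% interval -0.20 to 0.28). With age, Arntl differed by -0.14 in AL mice (limma adjusted p = 0.443) and by 0.18 in CR mice (limma adjusted p = 0.475). In AL mice the difference was -0.26 with the immediate early gene score as a covariate (unadjusted p = 0.0108, limma adjusted p = 0.0582) and -0.25 with the choroid plexus score (limma adjusted p = 0.232). In CR mice it was -0.039 with the choroid plexus score. The age by diet interaction of Arntl was 0.31 (limma adjusted p = 0.678), and with the immediate early gene score 0.39 (unadjusted p = 0.0057, limma adjusted p = 0.59). Clock, the partner of Arntl, kept group means between 14.01 and 15.4 FPKM. Its log2 fold changes ran from -0.11 (age in AL mice, 95% interval -0.31 to 0.094) to 0.094 (diet at 15 months, 95% interval -0.096 to 0.28).

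The PAR bZIP genes are direct outputs of the loop. Dbp stood at 26.2, 25.6, 28.6, 27.1 and 33.0 FPKM in AL mice at 5 months and at 25.0, 27.3, 23.8, 22.9 and 28.3 FPKM in CR mice of that age. At 15 months it stood at 39.7, 43.0, 33.2, 36.5, 28.4 and 36.0 FPKM in AL mice and at 25.5, 33.9, 32.5, 30.2, 20.0 and 27.2 FPKM in CR mice. AL mice at 15 months were the highest group, and they overlapped with AL mice at 5 months and CR mice at 15 months but not with CR mice at 5 months.

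Dbp rose with age in AL mice by 0.35 on the log2 scale (SE 0.12, limma adjusted p = 0.0403; exact permutation p = 0.0173). This call was lost in 8 of the 22 fits without 1 library, those without the AL libraries numbered 0 to 3 at 5 months or 0, 1, 3 and 5 at 15 months. Over the 22 fits the log2 fold change ran from 0.30 to 0.42, and with the region score as a covariate the log2 fold change was 0.69 (limma adjusted p = 0.057). Between the diets at 15 months Dbp differed by -0.36 (95% interval -0.60 to -0.13, limma adjusted p = 0.121; exact permutation p = 0.0238), and all 6 CR libraries lay below the AL median. Without the lowest CR library, numbered 4, the difference was -0.27 (limma adjusted p = 0.192). Tef averaged 99.6 ± 6.12 (SD, n = 5) and 114 ± 11.9 FPKM (SD, n = 5) in AL and CR mice at 5 months, and 106 ± 6.60 (SD, n = 6) and 128 ± 17.9 FPKM (SD, n = 6) at 15 months. Its diet difference was 0.25 at 15 months (SE 0.082, limma adjusted p = 0.13; exact permutation p = 0.00433) and 0.22 over both ages (SE 0.061, limma adjusted p = 0.129). The diet differences of Dbp and Tef had opposite signs at each age, and neither passed over all genes. For diet at 5 months the exact permutation p was 0.151 for Dbp and 0.0556 for Tef.

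Annotated neighbors share exon sequence with 4 members, and the library kit does not keep strand. In GENCODE M21 on GRCm38, Nr1d1 (chr11:98767932-98775333, minus strand) overlaps Thra, the thyroid hormone receptor alpha gene on the opposite strand, over 263 of its 3077 exon bases. Dbp (chr7:45705088-45710203, plus strand) overlaps Sphk2 over 539 of 2993 exon bases. The antisense genes Gm17597 and Gm45355 cover 193 of 7867 exon bases of Tef and 33 of 7523 of Arntl, and Camta1 and 2 genes over Clock (Ube2n-ps1 and Gm43658) share 0 exon bases with Per3 and Clock. Thra averaged 214 ± 38.6 FPKM (SD, n = 6) in the AL and 254 ± 33.9 (SD, n = 6) in the CR group at 15 months, a log2 fold change of 0.26 (limma adjusted p = 0.25), of the opposite sign to that of Nr1d1. With age in AL mice Thra had a log2 fold change of -0.32 (limma adjusted p = 0.0607) while Nr1d1 rose. Sphk2 had group means from 15.5 to 15.97 FPKM, with a log2 fold change of 0.035 for age in AL mice and -0.0375 for diet at 15 months.

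Beyond the 10 members, 23 further clock genes were followed, and all 23 were tested. For age in AL mice 9 were called, 7 higher and 2 lower at 15 months, against 20.6% of all genes. The genes that rose include Npas2, a paralog of Clock, from 7.91 ± 2.29 (SD, n = 5) to 14.8 ± 2.51 FPKM (SD, n = 6), a log2 fold change of 0.93 (limma adjusted p = 0.016). The cryptochrome gene Cry2 rose by 0.24, the PAR bZIP gene Hlf by 0.83 and the kinase gene Csnk1e by 0.34 on the log2 scale. The ROR receptor genes Rora and Rorb rose by 0.77 and 0.88; RORs act on the same elements as the REV-ERBs, and both genes are also expressed in neocortex and thalamus. Fbxw11, a ubiquitin ligase subunit that targets PER, fell by 0.29, and Nampt, the rate-limiting enzyme of NAD salvage, fell by 0.27. With the region score as a covariate 0 of the 23 were called, and with the choroid plexus score 3.

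Ciart was the only gene among the 23 called for diet. It encodes a repressor of ARNTL-CLOCK. In AL mice it had a lowest, median and highest level of 7.18, 9.04 and 10.6 FPKM at 5 months and 10.4, 14.7 and 19.5 FPKM at 15 months. In CR mice these levels were 5.41, 6.31 and 7.72 FPKM at 5 months and 8.01, 8.92 and 10.1 FPKM at 15 months. At 15 months the CR libraries lay below all AL libraries, and at 5 months the groups overlapped. The diet difference of Gm129 (Ciart) was -0.62 on the log2 scale at 15 months (SE 0.13, limma adjusted p = 0.0396) and -0.54 over both ages (SE 0.099, limma adjusted p = 0.0164). It rose with age in AL mice by 0.68 (limma adjusted p = 0.00232) and in CR mice by 0.52 (limma adjusted p = 0.0431). At 5 months its diet difference was -0.46 (limma adjusted p = 0.922). The call at 15 months did not pass with the region score as a covariate (-0.60, limma adjusted p = 0.12), and it was lost in 10 of 22 fits without 1 library, among them that without the highest AL library, numbered 5 (-0.53, limma adjusted p = 0.0667). Over these fits the difference ran from -0.69 to -0.53. The rise in CR mice was lost in 12 of the 22 fits, among them that without the CR library numbered 4 at 15 months (0.49, limma adjusted p = 0.0702). The averaged diet difference was kept in all 22. Usp2, a deubiquitinase gene named here after its values were seen, was 0.39 higher with age in CR mice (limma adjusted p = 0.0665), and passed without the CR library numbered 4 at 15 months (0.43, limma adjusted p = 0.0425) or at 5 months (0.49, limma adjusted p = 0.017). Without the latter it also passed in AL mice (limma adjusted p = 0.0414).

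The relation of Arntl to the genes that usually peak opposite to it was read in 2 ways. Every mouse was killed in mid-afternoon, so neither way follows the cycle or can show or deny an opposite phase. Within each library, the log2 ratio of Nr1d1 to Arntl averaged 1.78 ± 0.10 (SD, n = 5) in the AL and 1.79 ± 0.12 (SD, n = 5) in the CR group at 5 months. At 15 months it averaged 2.27 ± 0.30 (SD, n = 6) in AL and 1.74 ± 0.16 (SD, n = 6) in CR mice. In fold terms Nr1d1 stood 3.43, 3.46, 4.81 and 3.34 times above Arntl in these 4 groups, with AL mice at 15 months the highest. The Dbp to Arntl ratio was also highest in AL mice at 15 months, with means of 0.98 ± 0.25, 1.11 ± 0.15, 1.47 ± 0.44 and 1.06 ± 0.16 in the same order of groups. In AL mice at 15 months it ran from 1.63 to 2.04 in the libraries numbered 0 to 3. It was 0.82 and 1.06 in those numbered 4 and 5, which had the highest Arntl of the group. The Per1 to Arntl ratio was lowest in AL mice at 5 months, at 0.39 ± 0.17, followed by 0.70 ± 0.16 in CR mice of that age, 0.84 ± 0.31 in CR mice at 15 months and 1.10 ± 0.28 in AL mice at 15 months. The Per2 to Arntl ratio was -0.54 ± 0.20 in AL and 0.029 ± 0.19 in CR mice at 5 months, and -0.28 ± 0.50 and 0.026 ± 0.39 at 15 months. The Nr1d2 ratio ran from 1.03 to 1.47 and the Per3 ratio from -0.38 to 0.063 over the group means. All these ratios share the Arntl values as denominator, so they are not independent of each other. They were not tested.

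**Figure D3:**
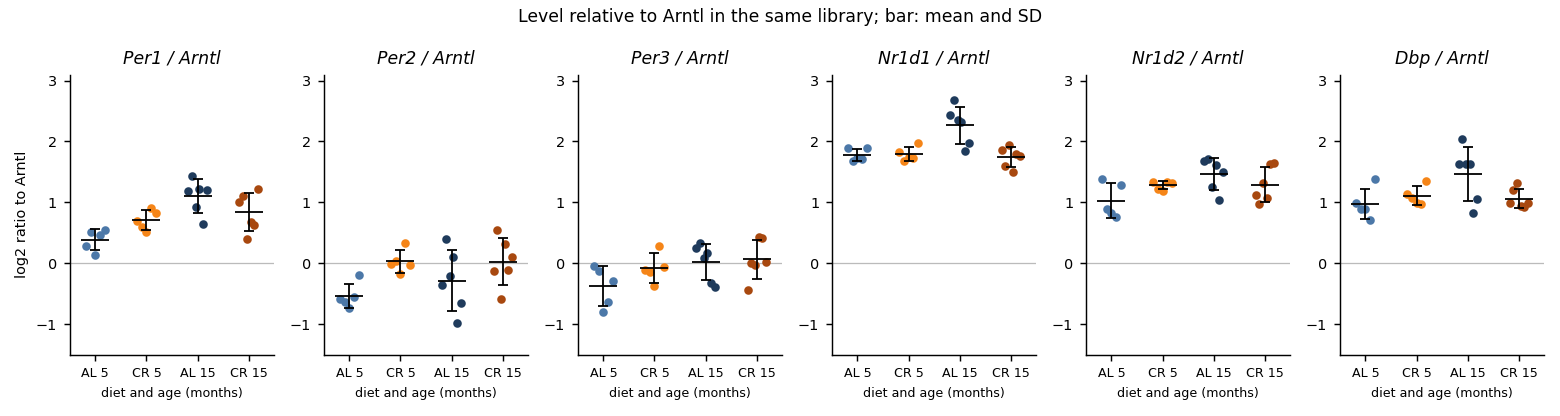
log2 ratio of Per1, Per2, Per3, Nr1d1, Nr1d2 and Dbp to Arntl in the same library (y axis) by diet and age in months (x axis); points are libraries, bars the mean and SD. The Nr1d1 ratio averages 2.27 in AL mice at 15 months and between 1.74 and 1.79 in the other groups.

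Among mice of the same group, no relation of Arntl with the opposite-phase genes passed. After the group means were removed, the correlation of Arntl with Per1 was r = 0.56 (rho = 0.50) over 22 libraries. The permutation p was 0.021 for r and 0.0339 for rho, and 0.189 and 0.306 after adjustment over the 9 relations computed. Without the 2 libraries farthest from the median of Arntl, both from AL mice at 15 months, r was 0.56. It was 0.39 at 5 months (n = 10) and 0.59 at 15 months (n = 12). For Nr1d1 r was 0.40 and rho 0.32 (permutation p = 0.134 and 0.212), and without the 2 libraries r was 0.53. For Nr1d2 r was 0.32 and rho 0.15 (permutation p = 0.308 and 0.575), and without them 0.099. For Dbp r was 0.042 and rho 0.041 (permutation p = 0.871 and 0.868), and without them 0.41. For Per2 and Per3 r was 0.21 and 0.17 (permutation p = 0.409 and 0.45), with rho of 0.24 and 0.13. Without the 2 libraries r was 0.50 for Per2 (permutation p = 0.066) and 0.26 for Per3. None of the 9 relations passed after adjustment, and none of the 9 coefficients was below 0 over the 22 libraries. Their signs come from mice killed at a single time of day and do not give the phase of these genes over the cycle. At 5 months alone, 5 were below 0 (Clock, Per3, Cry1, Nr1d2 and Dbp), the lowest being Cry1 at -0.44, and none of these passed. At 15 months alone Cry1 had r = 0.63 and rho = 0.66 (permutation p = 0.0233 for r, not adjusted).

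**Figure D4:**
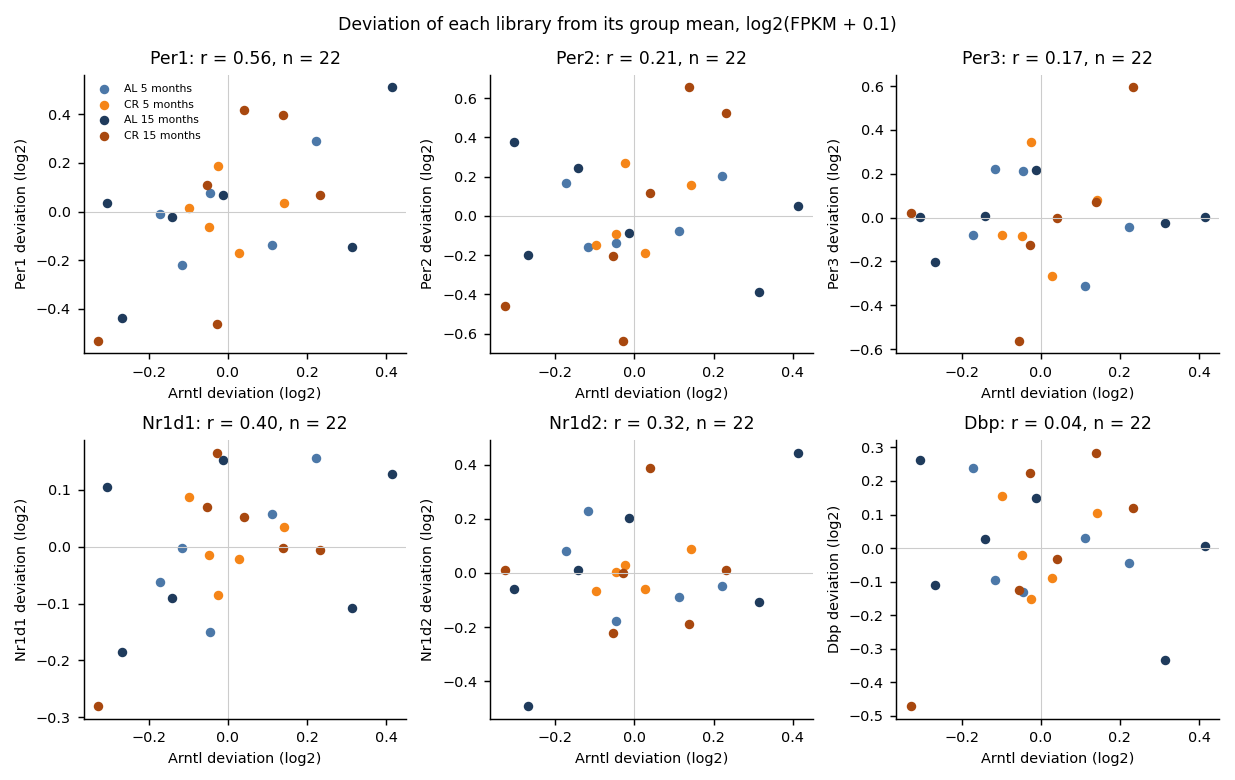
Deviation of each library from its group mean in log2(FPKM + 0.1), Arntl on the x axis and Per1, Per2, Per3, Nr1d1, Nr1d2 or Dbp on the y axis; colors mark the 4 groups. The r printed in each panel runs from 0.04 for Dbp to 0.56 for Per1.

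Of the 45 pairs of members, the highest within-group r were 0.68 for Per1 with Per2, 0.63 for Nr1d1 with Dbp and 0.58 for Clock with Nr1d2, and the lowest was -0.22 for Clock with Dbp. These are given as a description. Over 13838 genes with a mean of at least 1 FPKM, the genes most like Arntl were Frmd6 (r = 0.89), Zfp934 (0.86), Hspb3 (0.84), Rab35 (0.82) and Kctd1 (0.82), and the most opposite were Agt (-0.83), Nedd9 (-0.81), Myof (-0.81), Hspb8 (-0.81) and Tspan4 (-0.79). Per1, the nearest member, ranked 366 for Arntl. The genes most like Dbp were Oplah (r = 0.82), Cmtm5 (0.81), Athl1 (0.78), Bckdha (0.78) and Tmem120a (0.78), and the most opposite were Alg6 (-0.83), Zranb2 (-0.81), Znhit6 (-0.81), Csnk1g1 (-0.80) and Sestd1 (-0.80). Nr1d1 was the nearest member to Dbp, ranking 209 of 13838.

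The members were also set against scores of other gene lists within groups. Of 30 relations computed, none passed after adjustment. The largest was that of Arntl with the immediate early gene score, the mean log2 level of 11 genes such as Fos and Arc that neuronal activity induces, with r = 0.74 and rho = 0.62 over 22 libraries (permutation p = 0.00372 and 0.0118, adjusted p = 0.112 and 0.118). Without the 2 libraries farthest from the median of the score, r was 0.48. Per1 had r = 0.62 and rho = 0.53 with the same score (permutation p = 0.0117 and 0.0285, adjusted 0.147 and 0.171), and 0.72 without the 2 farthest. The summed level of the 11 immediate early genes ran from 161 to 324 FPKM in AL mice at 5 months and from 146 to 715 FPKM in AL mice at 15 months, with 0 of the 11 called between these groups. The Arntl and Per1 differences with this score as a covariate are given with those genes. Dbp had r = -0.58 and rho = -0.57 with the region score (permutation p = 0.0196 and 0.0158, adjusted 0.147 and 0.119), and -0.60 without the 2 farthest libraries. With the region score Per2 had r = -0.58 and rho = -0.64 (permutation p = 0.0273 and 0.00638, adjusted 0.164 and 0.0957), and -0.48 without the 2 farthest. Per2 had r = 0.49 and rho = 0.64 with a score of glucocorticoid target genes (permutation p = 0.0196 and 0.00192, adjusted 0.147 and 0.0576), and 0.48 without the 2 farthest.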

How the data were processed

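Hippocampal CA1 mRNA of 22 mice was sequenced with the TruSeq RNA kit v2, 1 library per mouse. The FPKM values are those the authors deposited, after alignment to mm10 with TopHat, removal of duplicates with Picard and estimation with Cufflinks, with its corrections for bias and multi-mapped reads; the versions and the annotation are not given in the sources used here. The 16978 of 23361 genes whose mean FPKM reached 0.1 were tested as log2(FPKM + 0.1), which understates changes of low genes. The 4 group means were fitted with limma 3.58.1 in R 4.3.3 (eBayes with intensity trend) and p-values were adjusted over all genes (Benjamini-Hochberg, two-sided). Exact permutation tests and 100000 permutations within groups for correlations were run in scipy 1.17.1. The exact permutation p-values were not adjusted. Steps were tested on simulated data. The members, gene lists and tests were chosen with earlier results of these data known. Besides all 10 members, the text names the further clock genes called in any comparison, overlapping genes, and the 5 genes with the highest and the 5 with the lowest r for Arntl and for Dbp. FPKM did not resolve into whole reads (at most 0.199% of genes lay on a common ratio between a pair of libraries), so the depth behind each value is unknown and no counting interval is given. The number of libraries sets the precision. Median FPKM was 2.51 to 3.10 per library, and 18281 to 19175 genes were above 0. Alternatives were another pseudocount, filter, scaling, prior, fit, replicate block, 4 covariates (that for glucocorticoid targets was chosen after seeing the data) and each library left out. Promoters came from RefSeq (GRCm38.p6) and positions from GENCODE M21. Which libraries shared a sequencing run is not given in the labels.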

Additional observations from a re-analysis of the deposited data

Results flagged for a closer look

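In 40 groups of values, 10 genes in 4 groups each, 2 held a library far from the others by Dixon's test, and chance flags about 2 in 40. Cry1 stood at 6.31 FPKM in the CR library numbered 4 at 15 months, where the other 5 ran from 8.55 to 9.77 FPKM; this library also had the lowest Nr1d1 and Dbp of all 22. Nr1d2 stood at 42.7 FPKM in the CR library numbered 5 at 15 months, where the others ran from 28.0 to 32.9 FPKM. The cause was not tested in either case.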

How the results depend on the processing

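Of the log2 fold changes recomputed in fits with all libraries, 861 kept their sign and their side of the threshold, 45 no longer passed and 9 changed sign. With the region score as a covariate 0 of the 10 clock genes and 0 of the 23 further genes were called for age in AL mice, 1 of the 10 for diet averaged over ages and 0 of the 23 in each diet comparison and for age in CR mice. For age in AL mice 5 of the 10 still had an unadjusted limma p under 0.05 with this score. Their median log2 fold change over the 10 was 0.40, against 0.28 without it. Between these groups the mean CA1 score fell from 5.14 to 4.04 and that of neocortex and subiculum rose from 3.30 to 3.95. Age and region therefore cannot be told apart in that fit. With the choroid plexus score 2 of the 10 and 3 of the 23 were called for age in AL mice. Ciart was called for age in CR mice, but 0 of the 23 were with a pseudocount of 1, with no filter, with the filter raised to 1 FPKM, or with the region, choroid plexus or immediate early gene score, and 2 were in the separate fit. The separate fit called 0 of either list for diet at 15 months, the immediate early gene score 0 of the 23 there, and the fit without a filter 1 of the 10 for the averaged diet effect.

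The numbers shared by mice of different groups were not taken as a pairing. The 31 pairs with the same number correlated at -0.14 to 0.16, and 2 were above 0.1. Pairs with different numbers were not computed beside them, so a link between mice of the same number was not tested. With the replicate block 3 of the 10 clock genes, not Dbp, were called for age in AL mice, 1 for diet at 15 months and 2 for the averaged diet effect, with 323 genes called in all for diet at 15 months against 126 and 118 against 66 for the averaged effect.

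Counts over all genes moved with the covariates and the fit. For age in AL mice 3502 genes were called, 32 with the region score and 2127 with the choroid plexus score; for age in CR mice 570, against 22 and 0, 304 with the filter raised to 1 FPKM, 324 in the separate fit and 331 to 775 with a library left out (331 without the CR library numbered 1 and 347 without that numbered 4 at 5 months). For diet at 15 months 126 were called, against 7 with the region score, 68 with the immediate early gene score, 77 after quantile normalization, 0 in the separate fit and 15 to 732 with a library left out; for the averaged effect 66, against 29 with the region score and 29 to 72 with a library left out. For diet at 5 months 0 were called, and 1 without the eBayes trend or with the glucocorticoid score. Leaving out the AL library numbered 4 at 5 months also gave 1. Scaling to a common median changed the split for age in AL mice from 1809 higher of 3502 to 1441 of 3727, and for diet at 15 months from 56 of 126 to 87 of 138.

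The signs that changed belonged to values that had not passed. With the choroid plexus score these were Arntl (-0.039) and Nr1d2 (-0.0087) for age in CR mice, Nr1d2 for diet at 5 months (0.068) and the Tef interaction (-0.0057); with the region score Nr1d2 (0.022) and Per3 (-0.0021) for diet at 5 months and the Per2 interaction (-0.040); with the glucocorticoid score Nr1d2 for diet at 5 months (0.033) and the Per2 interaction (-0.14). The r of Arntl was -0.22 with Clock, -0.44 with Cry1, -0.20 with Dbp, -0.28 with Nr1d2 and -0.24 with Per3 at 5 months alone, and with Dbp -0.029 after quantile normalization and -0.0078 with the region score removed.

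With each library left out in turn, clock genes called numbered 2 to 5 for age in AL mice, 0 to 1 for age in CR mice and 1 to 2 for the averaged diet effect; of the 23, 0 to 2 were called for age in CR mice, 0 to 2 for diet at 15 months and 1 to 2 for the averaged effect. Ranges that crossed 0 were Arntl (-0.019 to 0.12) and Per3 (-0.034 to 0.20) for diet at 15 months, Clock (-0.0045 to 0.079), Nr1d2 (-0.069 to 0.034), Per1 (-0.012 to 0.12) and Per3 (-0.058 to 0.095) for diet at 5 months, Clock for age in CR mice (-0.083 to 0.048), Per3 for the averaged diet effect (-0.0025 to 0.11), the Per2 (-0.076 to 0.18) and Per3 (-0.062 to 0.17) interactions, and the r of Arntl with Dbp (-0.27 to 0.25) and Per3 (-0.0088 to 0.22). The cause was not tested.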
